A study of Mus musculus with 2 samples.

Results

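The signals of 5 genes that mark immune cells resident in fat were followed on both arrays of the series. Retnla, Cd163, Ccl6 and Mgl2 were taken as markers of alternatively activated macrophages and Tpsb2 as a marker of mast cells. Cd163 and Ccl6 are also general macrophage markers, and Mgl2 is also a gene of dendritic cells. The 5 genes are the rows of the authors' deposited table with exactly these symbols, 5 of its 869 rows. Each was joined by its transcript cluster identifier to the value table of 35556 probes. That deposited table lists only probes with a linear ratio of H4-TG over WT of 1.5 or more, so the direction of the 5 genes was fixed by how they were chosen and is given as a description without a test. The arrays were made from inguinal white adipose tissue, a subcutaneous fat pad, from male mice aged about 8 weeks, housed at room temperature and fed normal chow. One group was wild-type (WT) and the other carried the H4-TG transgene. The sources used here give neither the meaning of H4 nor the promoter that drives it, nor the strain. For each genotype the RNA of 4 animals was pooled onto 1 array. There is thus no spread between replicates in either group, no p-value is given, and an animal that differed from its group cannot be seen. In such bulk RNA, more cells of a type and more RNA per cell cannot be told apart.

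Macrophages of lean subcutaneous fat are largely of the alternatively activated kind. In mice this state is induced by the type 2 cytokines interleukin-4 and interleukin-13, which signal through the transcription factor STAT6, and it is associated with tissue maintenance rather than with inflammatory killing. Mast cells lie along vessels and in connective tissue and store proteases such as tryptases in their granules.

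A RefSeq promoter window was found for 4 of the 5 genes in the GRCm38.p6 build, of 250 bases before and 50 bases after a transcript start, and for Tpsb2 no window was matched. For Cd163 and Mgl2 the window belongs to a start that lies downstream of the gene's outermost one. The 3 windows shown are those that hold any of the motifs searched for, with every motif match in capitals. Retnla lies on the plus strand at chr16:48842359-48842658, Ccl6 on the minus strand at chr11:83593038-83593337 and Mgl2 on the plus strand at chr11:70130107-70130406.
Retnla: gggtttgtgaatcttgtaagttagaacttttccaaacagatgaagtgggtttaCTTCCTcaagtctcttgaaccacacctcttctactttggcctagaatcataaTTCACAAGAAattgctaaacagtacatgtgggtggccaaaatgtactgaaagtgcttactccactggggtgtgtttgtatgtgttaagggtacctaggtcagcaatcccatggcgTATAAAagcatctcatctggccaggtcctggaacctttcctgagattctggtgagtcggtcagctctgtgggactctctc
Ccl6: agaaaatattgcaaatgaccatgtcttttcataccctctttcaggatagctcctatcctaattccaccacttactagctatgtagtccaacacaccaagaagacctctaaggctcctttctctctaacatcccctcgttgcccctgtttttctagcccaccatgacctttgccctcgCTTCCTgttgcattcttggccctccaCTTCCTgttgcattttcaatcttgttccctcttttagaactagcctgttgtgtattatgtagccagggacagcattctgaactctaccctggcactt
Mgl2: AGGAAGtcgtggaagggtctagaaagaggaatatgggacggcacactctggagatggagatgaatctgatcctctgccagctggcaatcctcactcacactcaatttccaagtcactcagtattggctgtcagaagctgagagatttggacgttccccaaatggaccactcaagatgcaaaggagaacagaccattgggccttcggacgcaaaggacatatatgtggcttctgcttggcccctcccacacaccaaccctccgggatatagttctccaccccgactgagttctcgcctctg

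The 5 motifs were searched on both strands, and positions count from the transcript start. The palindromic STAT6-type motif TTCNNNNGAA was found once, in the Retnla window at -145, and 6.95% of all 32851 promoter windows hold it. Retnla, the gene with the highest signal of the 5, also had the letters TATAAA at -30, which 13.6% of windows hold. The ETS-type motif AGGAAG, the core bound by the macrophage factor PU.1 and its relatives, was present in 3 windows of the 4. It lay at -197 in Retnla, at -73 and -47 in Ccl6 and at -250 in Mgl2, against 35.4% of all windows with at least 1 match. Both Ccl6 matches read CTTCCT in the printed strand. The STAT-type motif TTCNNNGAA and the GATA-type motif AGATAA were in none of the 4 windows, and 8.30% and 11.2% of all windows hold them. No motif was found in the Cd163 window. These motifs do not overlap one another in the printed windows, and a match describes letters only.

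The brightest of the 5 was Retnla, the secreted cysteine-rich protein resistin-like alpha, which interleukin-4 and interleukin-13 induce in mouse macrophages and which white fat also expresses. Its log2 signal was 9.19 in WT and 10.14 in H4-TG, a difference (H4-TG minus WT) of 0.96 or 1.94-fold. It stood at the 89.9th percentile of all probes in WT and at the 95.8th in H4-TG, moving from place 3595 to place 1511 from the top. Of all probes, 361 differed more in the same direction. The authors' deposited table, whose genome build is not stated, places the probe on chromosome 16 from 48842664 to 48844574.

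The chemokine Ccl6, which attracts macrophages and other leukocytes in mice, had a log2 signal of 8.35 in WT and 9.10 in H4-TG. The difference was 0.75, or 1.68-fold. Its place among all probes went from the 81.0th to the 89.9th percentile, so that on the H4-TG array it stood where Retnla had stood on the WT array. The authors' table puts its probe on chromosome 11 at 83401394 to 83406492.

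Mgl2 (CD301b) is a C-type lectin of macrophages and dendritic cells that binds galactose-type sugars. Its log2 signal was 7.33 in WT and 8.08 in H4-TG, a difference of 0.75 or 1.68-fold, and its percentile went from 65.7 to 78.6. Its probe is placed on chromosome 11 at 69943859 to 69951052. Mgl2 and Ccl6 thus differed by almost the same amount, at places 735 and 734 of all probes by difference, although Ccl6 was the brighter on both arrays.

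Cd163, the scavenger receptor that takes up haemoglobin bound to haptoglobin, was near the middle of the array in WT. Its log2 signal was 6.35 against a median over all probes of 6.34 in WT, and 7.14 against a median of 6.31 in H4-TG. The difference of 0.79, or 1.73-fold, was the second of the 5 in size as deposited, and behind Ccl6 and Mgl2 after centring along signal (0.83 against 0.85 for both). On the deposited values Cd163 went from the 50.1st to the 64.1st percentile. Its probe covers 124254674 to 124280545 of chromosome 6.

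Tpsb2 is tryptase beta 2, a serine protease of mast cell granules. It had a log2 signal of 6.45 in WT and 7.09 in H4-TG, a difference of 0.64 or 1.56-fold, and went from the 51.8th to the 63.4th percentile. Its probe covers 25502318 to 25505683 of chromosome 17. Tpsb2 has a close relative in Tpsab1, and no source used here says whether the probe separates the pair. It was the nearest of the 5 to the 1.5-fold limit of the authors' table. There 220 rows had a smaller ratio, and the closest probe below the limit on the value table was at 1.499-fold.

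**Figure D1:**
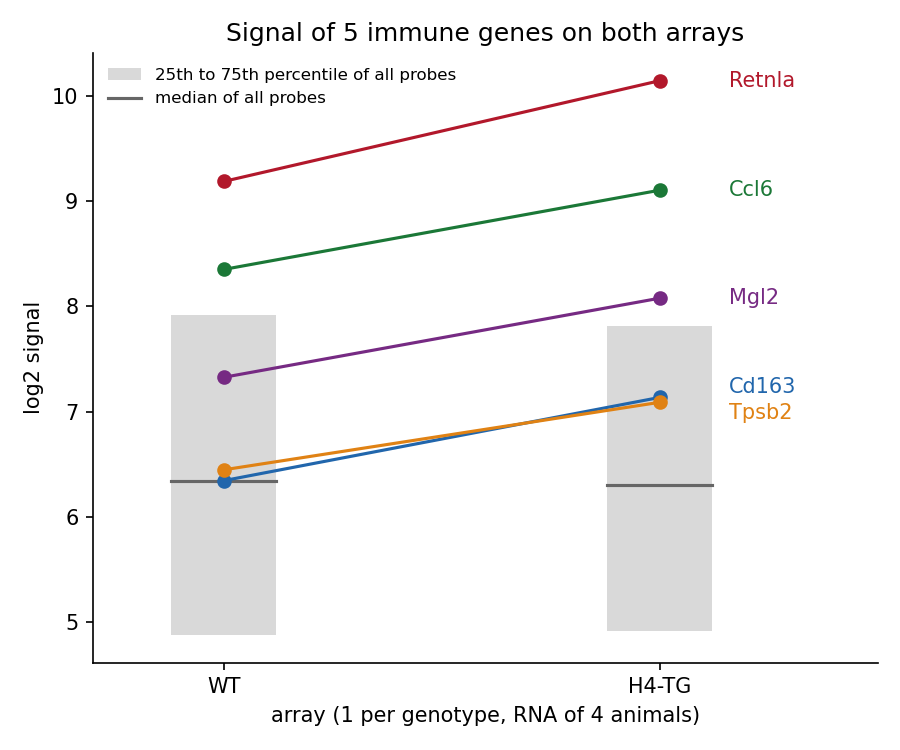
Log2 signal (vertical axis) of the 5 genes on the WT and H4-TG arrays, with 1 line per gene. Grey boxes span the 25th to 75th percentile of all probes and the dark line is their median. Retnla and Ccl6 lie above the box on both arrays, Mgl2 leaves it at 8.08 on the H4-TG array, and Cd163 and Tpsb2 start near the WT median and stay within the box.

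Among themselves the genes were spread far more in signal than in difference. Log2 signals spanned 2.84 in WT and 3.06 in H4-TG, whereas the differences ran from 0.64 to 0.96, a span of 0.32 on the log2 scale. The order of signals was Retnla, Ccl6 and Mgl2 on both arrays, and Cd163 and Tpsb2 changed places at the lower end, where their WT signals differed by 0.10. Signals of different probes also depend on how well each probe binds, so this order describes probes and not the abundance of the transcripts.

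All 5 were at least 1.5-fold higher, as were 4.27% of all probes and 2.31% of those whose mean signal, like that of the 5, was at or above the median of 6.31. None reached 2-fold, as 0.892% of all probes did. Since the genes were picked from the table of higher probes, nothing follows from this count. The median of the 5 differences was 0.75, beside a median of -0.01 over all probes and 0.72 over the 869 rows of the authors' table. By size, Retnla held place 160 of those rows, Cd163 place 289, Ccl6 351, Mgl2 352 and Tpsb2 632. By H4-TG signal they stood higher, with Retnla at place 35, Ccl6 at 74 and Mgl2 at 134, followed by Cd163 at 223 and Tpsb2 at 228.

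**Figure D2:**
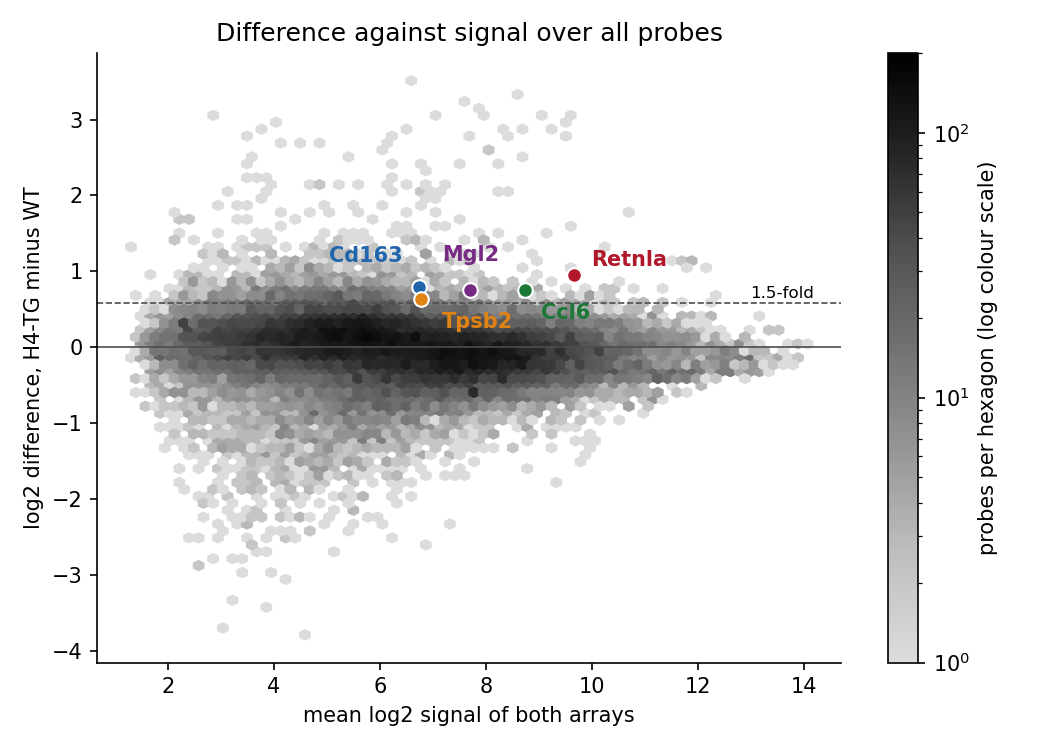
Log2 difference between the arrays (H4-TG minus WT, vertical axis) against the mean log2 signal of both arrays (horizontal axis) for all 35556 probes. Shading gives the number of probes per hexagon on a log colour scale, and coloured points are the 5 genes. All 5 lie above the dashed 1.5-fold line, at differences of 0.64 to 0.96, with Retnla farthest to the right.

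Most rows of the authors' table were dimmer than these genes. As a reference for low signals within that table, 90 of its rows are named for olfactory or vomeronasal receptors, which fat is not known to use. Their median log2 signal was 3.68 in WT and 4.39 in H4-TG. Only 1 of the 90 exceeded the lowest of the 5 genes on each array. All 5 were thus brighter than nearly every receptor row of that table. These rows had passed the same 1.5-fold floor, so they do not stand for all receptor probes of the array. No detection calls were used here.

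Differences between the arrays were wider at low than at high signal, so each gene was set beside the probes within 0.25 of its own mean log2 signal. The 1.5-fold floor of the authors' table, 0.58 on the log2 scale, lies above the 95th percentile of each of these sets, so the genes had to exceed it by how they were chosen, and only the places are described. For Retnla, 5 of 1001 such probes differed more, and their 95th percentile was 0.41. For Ccl6 these were 14 of 1925 probes, with a 95th percentile of 0.38. Mgl2 was exceeded by 29 of 2806 probes. In the middle of the signal range Cd163 was exceeded by 55 of 2925 and Tpsb2 by 84 of 2915, and the 95th percentile was 0.53 for both.

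**Figure D3:**
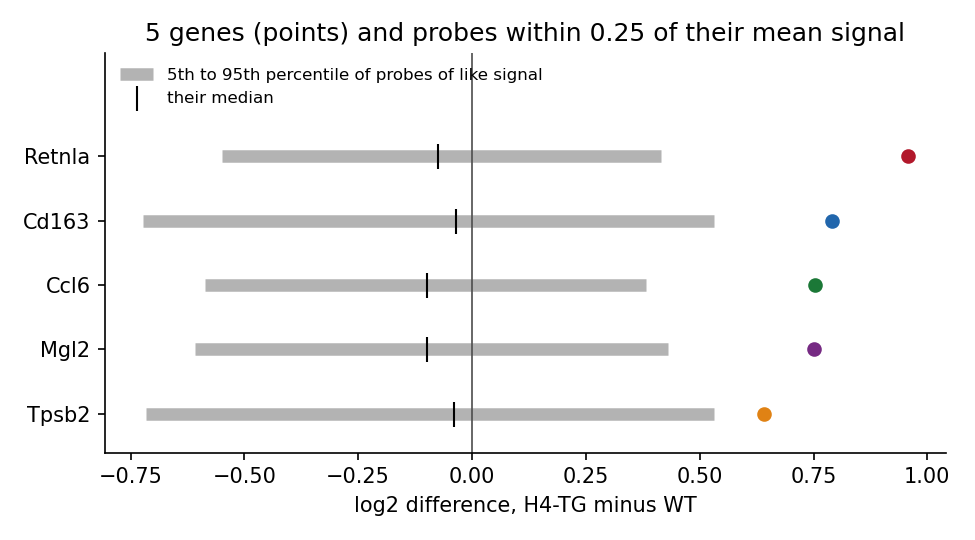
Log2 difference (H4-TG minus WT, horizontal axis) of each gene as a point, beside the probes within 0.25 of its mean log2 signal. The grey bar spans their 5th to 95th percentile and the tick is their median. Every point lies to the right of its bar, as the 1.5-fold floor of the authors' table requires, with Retnla at 0.96 beside a bar ending at 0.41 and Tpsb2 at 0.64 beside a bar ending at 0.53.

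Both Retnla and Mgl2 have a relative next to them in the genome that also stood in the authors' table. Retnlg, the resistin-like protein gamma of neutrophils and bone marrow, lies 28.2 kb from Retnla there, with no other RefSeq gene between them. Its log2 signal was 4.66 in WT and 5.31 in H4-TG, 1.57-fold higher and well below the array median on both. Asgr2, a subunit of the asialoglycoprotein receptor of liver and like Mgl2 a C-type lectin, lies 24.2 kb from Mgl2 with no other RefSeq gene between. It had 5.43 in WT and 6.02 in H4-TG, 1.51-fold. Retn and Retnlb of the resistin-like family, Clec10a, the closest relative of Mgl2, and Tpsab1 were missing from the table and thus have no value. Of 20 CC chemokines, 10 tryptases and other mast cell proteases and 12 scavenger receptors, Ccl6, Tpsb2 and Cd163 were the only ones listed. Of all probes, 2.44% were listed.

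The other genes of the macrophage and type 2 programmes could be read only where the authors' table, with 2.44% of all probes, names them. Genes missing from it have no value, and being missing does not show that a gene was unaltered. Of all probes 1518 were at least 1.5-fold higher and 869 were listed, so a missing gene may even have passed 1.5-fold. Without the probes whose identifiers lie below every listed one, 1066 were at least 1.5-fold higher. Part of the unlisted higher probes thus lies below the listed identifiers, and what those probes measure is not known here. No source used here says how the unlisted probes were left out. Of 28 genes of alternative activation 6 were listed, and 4 of the 6 are Retnla, Cd163, Ccl6 and Mgl2 themselves. The other two were Cd209f, a C-type lectin related to DC-SIGN, at 7.06 in WT and 8.05 in H4-TG (1.98-fold), and the matrix protein fibronectin, Fn1, at 9.08 and 10.12 (2.05-fold). Fibroblasts make Fn1 too. Arg1, Chil3, Mrc1, Clec10a and Il4ra were not listed.

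Of 29 general macrophage markers 4 were listed. Besides Ccl6 and Cd163 these were Pf4, a CXC chemokine of platelets and some resident macrophages, at 7.47 and 8.10 (1.55-fold), and F13a1, the catalytic subunit of coagulation factor XIII, at 7.81 and 8.43 (1.54-fold). The pan-macrophage markers Adgre1, Cd68, Csf1r and Lyz2 were not. Across the table as a whole, 2.44% of the array's probes were listed. The lists were drawn up with earlier results of these arrays known, so these shares are not independent evidence.

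For mast cells, 2 of 20 markers were listed, beside 2.44% of all probes. The second was Mrgprb1, a receptor of the Mas-related family, at 4.61 in WT and 5.26 in H4-TG (1.57-fold). It was far dimmer than Tpsb2, at the 21.1st percentile in WT. Cpa3, Cma1, Mcpt4, Kit and Fcer1a were not listed, so the mast cell name rests on Tpsb2 and this dim probe.

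No gene was listed of 16 for classical activation, 10 for lipid associated macrophages, 15 for the type 2 cytokine circuit, 8 for eosinophils, 12 for dendritic cells, 12 for T and natural killer cells or 8 for B cells. Thus the cytokines Il4, Il13 and Il33 and the inflammatory genes Tnf, Il1b and Nos2 have no value here. Of 12 neutrophil markers Retnlg and S100a9 (5.47 and 6.09, 1.54-fold) were listed, both below the array median. Over these 11 immune lists 12 of 163 distinct genes (7.36%) were listed, beside 2.44% of all probes. That share of all probes, here and for each list, includes probes with identifiers below every listed one. It is therefore lower than the share over the remaining probes. The 12 include the 5 genes, which were chosen from that table, so nothing follows from this share.

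**Figure D4:**
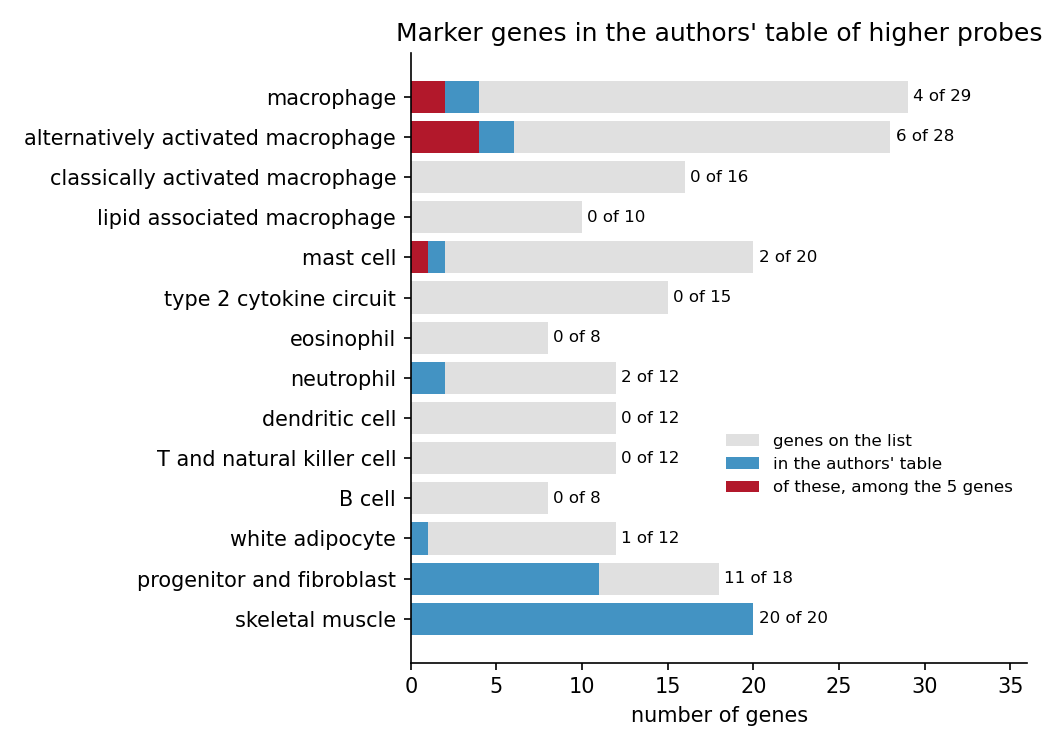
Number of genes (horizontal axis) on each marker list, with those in the authors' table of higher probes in blue and those among the 5 genes described here in red. The alternative activation list has 6 of 28 listed, 7 of the 11 immune lists have none, and the skeletal muscle list has 20 of 20. Of all probes, 2.44% are in that table.

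Markers of other tissues also stood in the authors' table, which lists 2.44% of all probes. Sums over listed genes run over probes already at or above its 1.5-fold floor, so their ratios cannot fall below it and do not describe a list as a whole. All 20 genes of a skeletal muscle list were listed, and their summed linear signal was 3379 in WT and 20109 in H4-TG, or 5.95-fold. The 3 brightest were the myosin light chain Myl1 (9.76 and 11.53), the calcium pump Atp2a1 (8.16 and 11.20) and the creatine kinase Ckm (8.15 and 10.95). Of 18 progenitor and fibroblast genes 11 were listed, with a summed linear signal over these 11 of 3268 and 6322, or 1.93-fold, and the others have no value. The 3 brightest were periostin (Postn, 9.58 and 10.80), the surface antigen Cd34 (9.33 and 9.99) and the matrix protein Efemp1 (8.44 and 9.57). The 6 listed genes of alternative activation had summed signals of 1826 and 3466, or 1.90-fold. Retnla and Fn1, which fibroblasts make too, were the brightest of the 6 on both arrays and weigh most in these sums. Muscle and connective tissue hold macrophages and mast cells of their own, and the part of these tissues in the 5 differences was not tested. Of 12 white adipocyte markers only angiotensinogen, Agt, was listed (6.95 and 7.67), so the fat cells of the sample could not be checked by Adipoq, Fabp4 or Plin1.

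The genes of the authors' table most like each of the 5 were found by the distance between pairs of log2 signals over the 2 arrays. Nearest to Retnla were Fn1, at a distance of 0.11, and the cytochrome Cyp2f2, at 0.19. Nearest to Cd163 were the heat shock gene Hspa1a (0.031) and the zinc transporter Slc39a8 (0.037), and nearest to Ccl6 were the apolipoprotein gene Apoc1 (0.052) and the cytochrome oxidase subunit Cox7a1 (0.066). Mgl2 was nearest to the nuclear receptor Ppara (0.038) and the metallopeptidase Adam12 (0.099). Tpsb2 was nearest to Asb2 (0.021), an ankyrin repeat protein, and Synm (0.032), an intermediate filament protein. None of the 10 is on an immune list except Fn1. With 2 arrays, likeness means only that the probes had about the same signals.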

How the data were processed

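Log2 signals were taken from the deposited value table, which holds 35556 probes of a mouse gene array. Part of these have identifiers below every row of the authors' table, and what that part measures is not known here. Percentiles, places and shares given for all probes include it. Per the submitters' processing notes MAS5 was used. No source used here gives its settings, how probes were summarised or how arrays were scaled. Per the file headers, a second deposited table of 869 rows holds log2 bi-weight average signals and their linear ratio, H4TG over CON. All 869 rows were within 0.005 of the value table on both arrays, with CON as the WT array. Rows with 1 gene symbol (822) were named by it, and older symbols were matched to RefSeq (GRCm38.p6). Where a gene had several probes, the brightest was used.

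Differences are H4-TG minus WT as deposited, with no normalization added, and places are counted among all probes. Nothing was tested, because each genotype has 1 array, and this number limits the precision of every value. The scalings were tested on simulated data with known shifts. Genes named are the 5, every gene of the 19 marker lists found in the authors' table (for muscle and progenitor lists the 3 brightest in H4-TG), and the 2 nearest genes to each of the 5, leaving out predicted, clone, small RNA and chemoreceptor names. The 5 genes and the lists were chosen with earlier results of these data known. Alternatives were median centring, quantile normalization, centring along signal (lowess, span 0.3), the authors' signals and other sets of probes for places. Python 3.11.15, numpy 2.4.6, pandas 2.3.3, statsmodels 0.14.6 and matplotlib 3.10.9 were used.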

Additional observations from a re-analysis of the deposited data

How the results depend on the processing

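Over median centring, quantile normalization, centring along signal and the signals of the authors' table, the 20 recomputed differences of the 5 genes all stayed within 0.1 of the deposited value and none changed sign. Because the genes come from a table of higher probes, this is no sign of stability. Retnla ranged from 0.95 to 1.05, Cd163 from 0.79 to 0.85, Ccl6 and Mgl2 from 0.75 to 0.85 and Tpsb2 from 0.64 to 0.71, and Retnla passed 2-fold under quantile normalization (1.04) and centring along signal (1.05). The count of probes at least 1.5-fold higher was 1518 over all probes and 410 over probes with a mean signal at or above the median, which leaves out 1 in 2 probes by construction. It was between 1066 and 1809 under the other 4 alternatives. Of 25 recomputed places, 5 moved by more than 5 percentile points, all of them WT places among the generally dimmer rows of the authors' table. The places among probes of like signal were added after seeing the data. No paired analysis was possible because there is only 1 array for a genotype, and leaving one out would leave no comparison.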

Other observations

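A few further genes of the authors' table, on none of the lists and chosen after their values were seen, are given as values. Fcrls, a scavenger receptor-like gene of tissue macrophages and microglia, was at 6.76 in WT and 7.50 in H4-TG (1.67-fold). Il1r2, the decoy receptor for interleukin-1, was at 6.12 and 6.92 (1.74-fold), and the atypical chemokine receptor Ackr3, named Cxcr7 in the table, at 6.35 and 7.06 (1.63-fold). The complement gene C7 was at 7.76 and 8.64 (1.85-fold). Clec3b, a secreted C-type lectin also called tetranectin, was at 7.13 and 7.77 (1.56-fold). With 1 array per genotype these values have no replicate check.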
